A study of Mus musculus with 2 samples.

Results

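The 10 genes described here encode the structural proteins of elastic fibers and their microfibrils: Eln, Fbn1, Fbln1, Fbln2, Fbln5, Mfap2, Mfap4, Mfap5, Lox and Emilin1. They were chosen by function, as a fixed list of gene symbols, out of the 32285 genes in the count matrices, and all 10 were measured in both libraries. An elastic fiber has a core of cross-linked elastin laid on a scaffold of fibrillin microfibrils. Fibulins and emilins join the core to the scaffold, microfibril-associated proteins bind fibrillin, and lysyl oxidase cross-links elastin and collagen. In blood vessels these fibers carry the recoil of arteries and are made mainly by smooth muscle cells, fibroblasts and, in part, by the endothelium.

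The data were single-cell transcriptomes of Lewis lung carcinoma (LLC, a transplantable mouse lung cancer line) grown under the skin of C57BL/6 mice. The sGC Ctr mice were Gucy1b1 flox/flox, and the sGC ∆PC mice were Cspg4-CreERT2::Gucy1b1 flox/flox, in which a tamoxifen-inducible Cre made wherever Cspg4 is active removes the β1 subunit of soluble guanylate cyclase, the receptor for nitric oxide. Mice of both genotypes were given tamoxifen in 5 doses when 4 weeks old and tumor cells when 8 weeks old. The tumors were taken 2 weeks later and digested with collagenase and dispase. Each genotype was 1 library of cells pooled from 3 tumors, so nothing separates genotype from library, and no difference between them has a replicate check. Intervals below are exact 95% intervals and cover counting error only, not the spread between animals or between cells.

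Levels are given in CPM, the unique molecular identifiers (UMIs, 1 per captured molecule) of a gene in every 1000000 UMIs summed over the cells of a class. Because the 3′ end of each molecule is counted once, no length correction was made. After filtering, 12220 sGC Ctr cells had a median of 35776.5 UMIs and 22498 sGC ∆PC cells a median of 8685. Marker genes placed 9130 and 13818 of these cells in 7 classes, sGC Ctr first here and wherever a pair of values follows: 114 and 154 fibroblasts, 35 and 27 pericytes, 56 and 55 endothelial cells, 6398 and 10640 cancer cells, 2204 and 2613 macrophages, 267 and 282 granulocytes, and 56 and 47 T cells. Of the cell barcodes in these classes, 46 occurred in both libraries. Pecam1, an endothelial adhesion molecule, stood at 962 and 907 CPM in endothelial cells and at 0 in pericytes, and Rgs5, a pericyte marker, at 4703.1 and 4477.0 in pericytes. The floxed gene, Gucy1b1, was at 123 CPM in sGC Ctr pericytes (54 UMIs) and at 43.6 in sGC ∆PC pericytes (12 UMIs), a log2 ratio of sGC ∆PC over sGC Ctr of -1.49 (interval -2.53 to -0.57). Which exons are floxed is not given in the sources used here, so the counted 3′ end may lie outside the deleted part. Lyz2, a lysozyme of myeloid cells, stood at 122 and 784 CPM in fibroblasts, at 89 and 617 in endothelial cells and at 145 and 553 in pericytes. Summed macrophage markers were at 386 and 531 CPM in fibroblasts, with 7 of 9 higher in sGC ∆PC. They were at 127 and 204 in pericytes (8 of 9 higher) and at 76.7 and 226 in endothelial cells (9 of 9 higher). Not all values differed in this direction. The sum was at 218 and 208 CPM in T cells, and Csf1r, a macrophage growth factor receptor, at 33.5 and 18.1 in fibroblasts. The part of free or mixed RNA in the values below was not tested except where a value is given.

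Fibroblasts were the class with the highest level of 9 of the 10 genes in both libraries, and endothelial cells were the class with the highest level of the tenth, Fbln5. Summed over all 10, fibroblasts held 5890.4 and 5275.8 CPM. Pericytes held 504 and 458, endothelial cells 507 and 228 (230.1 and 176 without the cell with the most Eln in each library), cancer cells 99.2 and 98.6, and macrophages 58.0 and 64.1. Granulocytes and T cells, which are not known to make elastic fibers, held 53.1 and 74.5 and 31.7 and 37.8, taken here as a rough background level. Granulocytes were shallow, with a median of 2117.0 and 2361.5 UMIs. Rhox5, a cancer marker, stood at 80.5 and 124 CPM in them, at 33.0 and 37.0 in endothelial cells and at 22.7 and 58.2 in pericytes. The granulocyte level therefore need not hold for other classes. The count of 9 was the same under all 8 other gates, filters and scalings. The share of all genes with their highest level in fibroblasts is not given here, so this count has no background beside it.

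**Figure D1:**
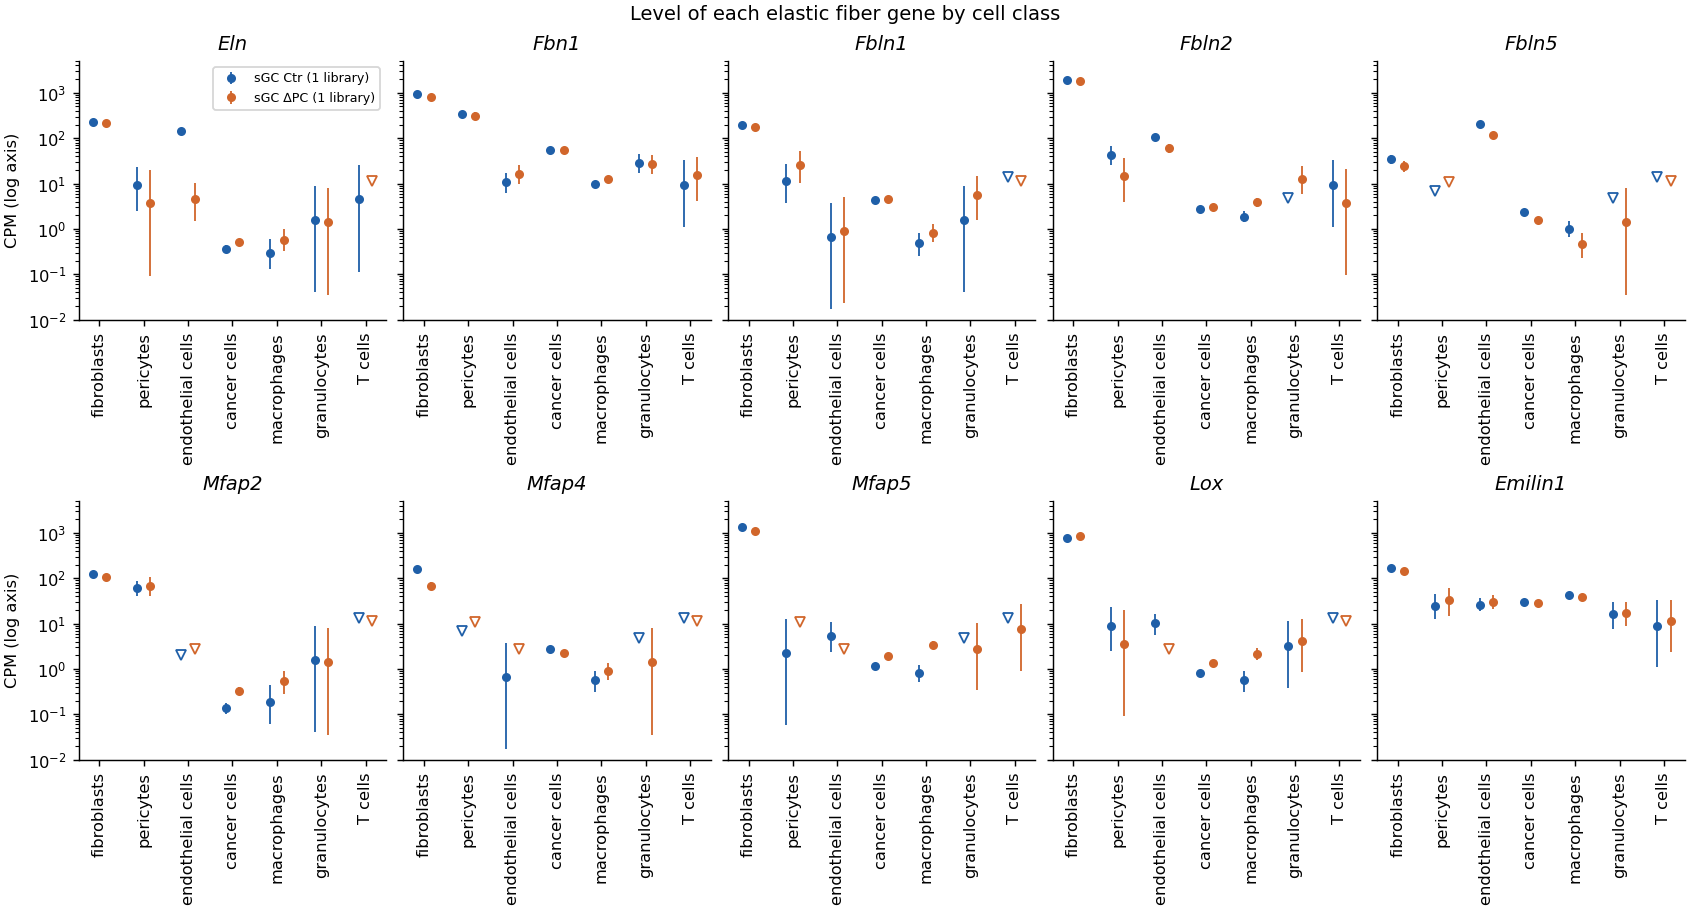
CPM on a log axis (y) for each gene in the 7 cell classes (x), with sGC Ctr in blue and sGC ∆PC in orange. Points are sums over the cells of 1 library with exact 95% Poisson intervals, and open triangles mark the level of 3 UMIs where no UMI was seen. Fibroblasts stand highest in 9 panels and endothelial cells in the Fbln5 panel.

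Elastin, the core protein (Eln, chr5:134702593-134747323 in mm10, minus strand), was at 228 CPM in sGC Ctr fibroblasts (interval 210 to 247) and at 217 in sGC ∆PC fibroblasts (198 to 239). The intervals of these levels overlap, with a log2 ratio of -0.07 (-0.25 to 0.11). The ratio differed between settings, at 0.04 in cells of at least 5000 UMIs, -0.80 with every cell thinned to 2000 UMIs, -0.65 with cells assigned by likelihood and -1.07 when cells with markers of other classes were let in. Eln was unevenly held, with a UMI in 72 of 114 and 51 of 154 fibroblasts and up to 80 and 52 UMIs in a single cell. Pericytes, the cells in which the deletion was directed, held 4 and 1 Eln UMIs in all, and cancer cells 0.37 and 0.52 CPM.

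Endothelial cells showed the widest gap between the libraries for Eln, and it came from a single cell. They held 215 Eln UMIs in sGC Ctr (145 CPM, interval 126 to 165) and 5 in sGC ∆PC (4.51, interval 1.46 to 10.5), a log2 ratio of -5.00 (-6.64 to -3.76). Of the 215, 210 were in 1 of the 56 cells, and no other endothelial cell of either library had more than 3. Without the top cell of each library the levels were 3.44 and 1.84 CPM and the log2 ratio -0.90 (-4.29 to 1.71). That cell had 30688 UMIs, 9 of the 10 endothelial markers including 38 Pecam1 and 38 Cdh5 UMIs, and 55 UMIs of Gja5, 60 of Gja4, 15 of Bmx and 30 of Sema3g, which are genes of arterial endothelium. It had no UMI of Krt8, Krt18 or Hmga2 and 1 of Rhox5, the cancer markers, and 12 of Acta2 and 9 of Tagln but none of Myh11, Cnn1, Actg2 or Myocd, the other contractile markers. The same cell held 108 UMIs of Fbln5, 76 of Fbln2 and 113 of Ltbp4, a latent TGF-beta binding protein that takes part in elastic fiber assembly. Endothelial cells with at least 3 of 6 arterial markers numbered 4 in each library. In sGC ∆PC these 4 cells held 3 Eln UMIs but 33 of Fbln5 (344 CPM) and 50 of Fbln2 (521 CPM), and the remaining 51 cells held 94.8 CPM of Fbln5 and 15.8 of Fbln2. In sGC Ctr the 4 arterial-marker cells stood at 1301.5 and 902 CPM of Fbln5 and Fbln2, against 132 and 58.6 in the other 52. Those values rest on the cell with the most Eln: without it the other 3 cells held 6 Fbln5 and 3 Fbln2 UMIs, or 105 (38.7 to 230) and 52.7 (10.9 to 154) CPM, with intervals that overlap those of the 52. Without the sGC ∆PC cell with the most Eln, the other 3 stood at 121 CPM of Fbln5 (55.3 to 230) and 215 of Fbln2 (123 to 349), so that the interval overlaps that of the 51 for Fbln5 and not for Fbln2. That Fbln2 value rests largely on another single cell, with 13 of the 16 UMIs.

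**Figure D2:**
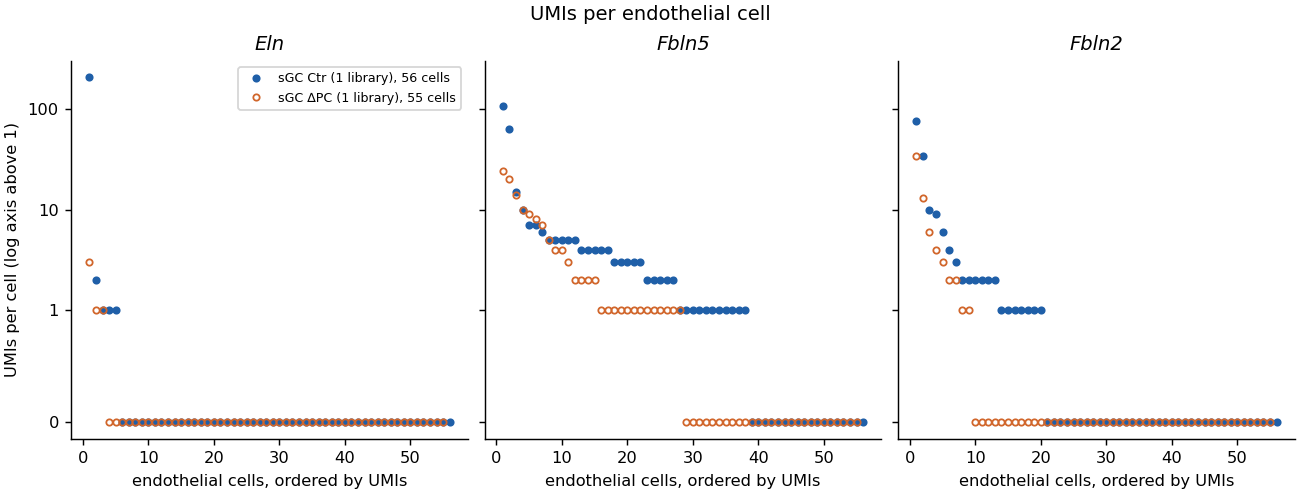
UMIs per cell of Eln, Fbln5 and Fbln2 (y, log axis above 1) in the 56 sGC Ctr endothelial cells (filled, blue) and the 55 sGC ∆PC endothelial cells (open, orange), each set ordered from high to low within its panel (x). A single sGC Ctr cell with 210 UMIs carries nearly all Eln. Fbln5 is seen in 38 and 28 cells but unevenly, with 108 of 298 sGC Ctr UMIs in the top cell and 64 in the next.

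Fibrillin-1, the main protein of the microfibril (Fbn1, chr2:125300594-125507993, minus strand), had a graded pattern. It was at 952 and 803 CPM in fibroblasts, at 343 and 309 in pericytes and at 54.7 and 54.8 in cancer cells, and none of these neighbours overlapped in either library. Granulocytes came next with 29.0 and 26.7. Endothelial cells stood at 10.8 and 16.2, with intervals that overlapped those of granulocytes. Cancer cells, 52.4% and 47.3% of the cells kept, held 66.5% and 65.4% of all Fbn1 UMIs, and fibroblasts 8.04% and 6.35%. Cancer cells were deep, with a median of 52961.0 and 15695.0 UMIs against 35776.5 and 8685 over the cells kept. Their Fbn1 level was below that over all the cells kept, 64.6 and 62.7 CPM. In pericytes Fbn1 was the only one of the 10 genes with at least 50 UMIs, at 151 UMIs in 32 of 35 sGC Ctr cells and 85 UMIs in 19 of 27 sGC ∆PC cells. The log2 ratio there was -0.15 (-0.55 to 0.24), so a difference in either direction up to these bounds was not detectable at this depth. A single sGC ∆PC pericyte held 26 of the 85 UMIs, and without the top cell of each library the ratio was -0.49 (-0.95 to -0.04).

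The fibulins parted by cell class. Fibulin-2 (Fbln2, chr6:91212455-91272540, plus strand) was at 1898.4 and 1794.7 CPM in fibroblasts, 17.5 and 30.2 times the level of the next class, endothelial cells at 108 and 59.5. Fibulin-1 (Fbln1, chr15:85205949-85286535, plus strand) was at 194 and 179 in fibroblasts, and at 11.3 and 25.5 in pericytes from 5 and 7 UMIs. Fibulin-5 (Fbln5, chr12:101746565-101819055, minus strand), which binds elastin and is needed for its assembly, was at 201 and 116 in endothelial cells, 5.86 and 4.85 times its level in fibroblasts (34.2 and 24.0). In endothelial cells the top cell held 108 and 24 of 298 and 129 Fbln5 UMIs, and the next cell 64 and 20. Without the top cell the level was 130.5 and 96.6 CPM. No Fbln5 UMI was seen in pericytes, which allows up to 6.81 and 10.9 CPM at a floor of 3 UMIs. Thinned to 2000 UMIs a cell, Fbln5 was detected in 18.5% of sGC Ctr endothelial cells (interval 9.26 to 31.4) and 24.5% of sGC ∆PC endothelial cells (13.8 to 38.3). Granulocytes, which should lack it, had 0 of 151 and 0.52% of 193 cells at the same depth. Without thinning these shares were 67.9% and 50.9% of endothelial cells, whose median depth was 24588.0 and 18256.0 UMIs, and 0 and 0.35% of granulocytes, at 2117.0 and 2361.5.

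Bases before a RefSeq start of Fbln2 and Fbln5 are printed because these fibulins were highest in different classes. Both are RefSeq windows of 250 bases on GRCm38.p6, at chr6:91212514-91212763 on the plus strand and chr12:101819120-101819369 on the minus strand, with capitals marking the GC box (GGGCGG on either strand). The RefSeq start of Fbln2 lies 309 bases inside the gene as GENCODE places it, so this window falls within the coordinates given above for the gene. The Fbln5 window lies before the gene. Of the 10 genes, 6 had a window in the table.
Fbln2: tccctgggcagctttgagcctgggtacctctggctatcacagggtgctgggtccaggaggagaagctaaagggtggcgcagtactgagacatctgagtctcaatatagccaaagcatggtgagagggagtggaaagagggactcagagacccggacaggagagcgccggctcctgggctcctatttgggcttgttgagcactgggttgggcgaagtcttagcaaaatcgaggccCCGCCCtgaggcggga
Fbln5: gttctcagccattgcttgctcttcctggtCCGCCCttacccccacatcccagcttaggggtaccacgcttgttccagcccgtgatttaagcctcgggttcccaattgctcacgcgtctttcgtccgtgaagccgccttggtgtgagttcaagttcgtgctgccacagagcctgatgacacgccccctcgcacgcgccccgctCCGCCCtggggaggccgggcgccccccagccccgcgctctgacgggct
The Fbln2 window has 1 GC box and 58.8% G or C, and the Fbln5 window 2 GC boxes and 65.2%, beside a median of 52.4% over 32851 windows of the same length, of which 32.7% hold the motif. Neither window holds TATAAA on either strand, found in 12.4% of windows.

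Among the microfibril-associated proteins, Mfap5 (chr6:122505845-122529290, plus strand) was held mainly by fibroblasts among the 7 classes. It was at 1355.5 and 1078.7 CPM there, 252 and 143 times the next class in each library. Those classes held few UMIs: endothelial cells 8 in sGC Ctr, of which 7 in 1 cell, and T cells 2 in sGC ∆PC. Mfap5 was seen in 81.3% and 68.1% of fibroblasts thinned to 2000 UMIs against 0 and 0.52% of granulocytes. Mfap2 (chr4:141010418-141015984, plus strand), which codes for MAGP-1, was shared by fibroblasts (126 and 105) and pericytes (61.3 and 69.1, from 27 and 19 UMIs in 14 and 12 cells). The intervals of these classes overlapped in sGC ∆PC and not in sGC Ctr. No Mfap2 UMI was seen in endothelial cells, which allows up to 2.02 and 2.71 CPM at a floor of 3 UMIs. Mfap4 (chr11:61485431-61488900, plus strand), which binds elastin and fibrillin, was at 162 and 69.0 in fibroblasts and at 2.74 and 2.27 in cancer cells. No Mfap4 UMI was seen in pericytes, which allows up to 6.81 and 10.9 CPM at a floor of 3 UMIs. That floor is above the cancer cell levels, so the order of these classes is not known.

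Lysyl oxidase (Lox), the cross-linking enzyme, was at 771 and 863 CPM in fibroblasts, 76.4 and 205 times the next class. The next class was endothelial cells in sGC Ctr and granulocytes, with 3 UMIs, in sGC ∆PC. Endothelial cells held 15 and 0 Lox UMIs, of which 14 were in 1 sGC Ctr cell. Emilin1 (chr5:30913402-30921277, plus strand), a glycoprotein at the border of elastin and microfibrils, was the least restricted of the 10. It was at 170 and 142 in fibroblasts, 42.7 and 38.7 in macrophages, 30.0 and 28.1 in cancer cells, 26.2 and 30.7 in endothelial cells and 24.96 and 32.7 in pericytes, with 16.1 and 16.9 in granulocytes. Macrophages were above cancer cells beyond the counting intervals in both libraries. In pericytes, endothelial cells and cancer cells the intervals of Emilin1 overlapped those of granulocytes in both libraries.

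Between the libraries, the fibroblast levels of 9 of the 10 genes were lower in sGC ∆PC, with a median log2 ratio of -0.25 beside -0.03 over the 7788 genes with at least 50 UMIs (quartiles -0.21 and 0.16). Mfap4 alone was past 2-fold, in a background where 1.18% of genes were at least 2-fold lower and 1.17% at least 2-fold higher. Mfap4 had 422 UMIs in 63 of 114 sGC Ctr fibroblasts and 141 in 33 of 154 sGC ∆PC fibroblasts, or 162 (147 to 178) and 69.0 (58.1 to 81.4) CPM. Its log2 ratio was -1.23 (-1.52 to -0.95) and lay between -1.72 and -0.98 under 9 alternatives, the latter with a gate of 1 more marker, which puts it just within 2-fold. The stated interval of 4 other genes also lay below 0, with ratios of -0.33 for Mfap5, -0.27 for Mfap2, -0.25 for Fbn1 and -0.25 for Emilin1. The interval of Fbln2 lay just below 0, at a ratio of -0.08 (-0.14 to -0.02). The share of all genes that were lower, and the share with an interval below 0, are not given here. The counts of genes lower and of intervals below 0 therefore have no background beside them. Lox was the 1 gene higher in sGC ∆PC, at 0.16 (0.07 to 0.26), and it was lower, at -0.52, when cells with markers of other classes were let in and, at -0.18, when cells were assigned by likelihood.

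Beside these values, the sGC ∆PC fibroblasts were shallower, with a median of 5887.5 UMIs against 21485.0, and 65 of 154 met the gate with no marker to spare, against 18 of 114. With cells of at least 5000 UMIs only, the Mfap4 ratio was -1.22. Summed macrophage markers were at 386 and 531 CPM in fibroblasts, with 7 of 9 higher in sGC ∆PC, and summed cancer markers at 115 and 157, with 4 of 4 higher. No marker of either list was at 0. The markers of the fibroblast gate itself summed to 53218.8 and 47799.8 CPM, with 3 of 8 higher in sGC ∆PC. Of these, Col1a2 had a log2 ratio of -0.28 (-0.305 to -0.255) and Col1a1 of -0.06 (-0.087 to -0.034). Contractile markers summed to 465 and 118 CPM, with none of 6 higher in sGC ∆PC and Myh11, Cnn1, Actg2 and Myocd at 0 there. Adventitial markers summed to 1445.9 and 862, with none of 7 higher and none at 0. The part of these lists in the differences of the 10 genes was not tested. Mfap4 was seen in 17.9% of sGC Ctr fibroblasts thinned to 2000 UMIs (interval 11.3 to 26.2) and in 7.80% of sGC ∆PC fibroblasts (3.96 to 13.5), which leaves out 2 and 13 shallower cells, and in no granulocyte of either library. Without thinning the shares were 55.3% and 21.4%.

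**Figure D3:**
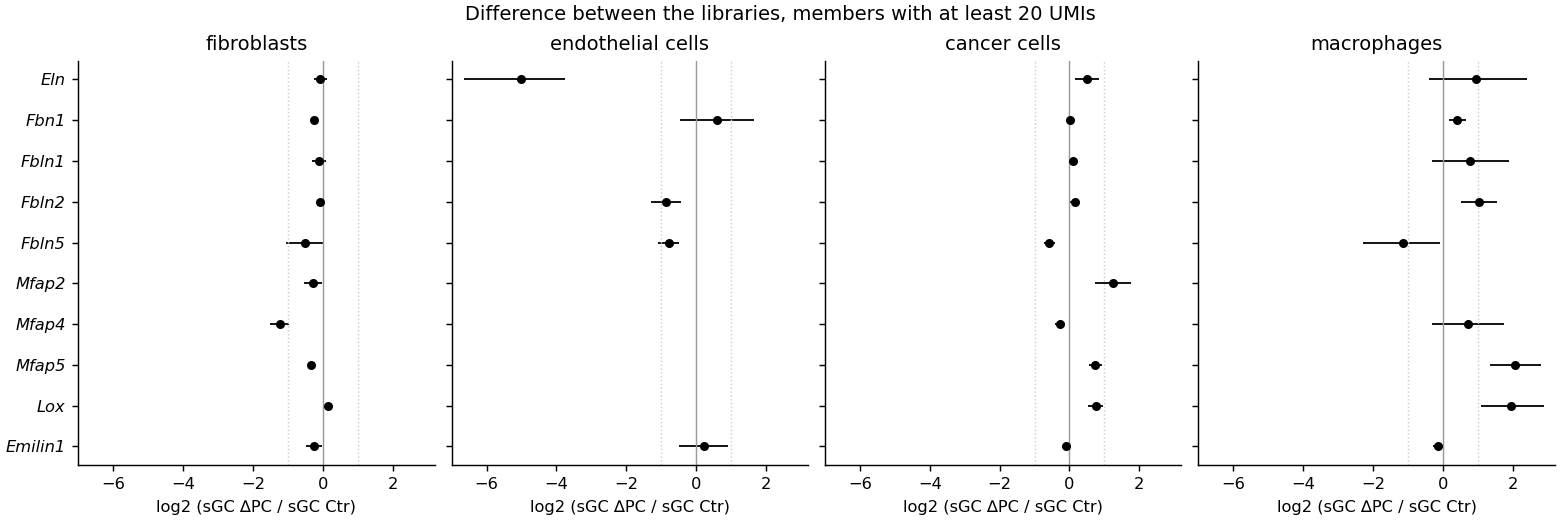
Log2 ratio of sGC ∆PC over sGC Ctr (x) with exact 95% intervals for each gene (y) in 4 cell classes, 1 library a side, for genes whose UMIs in the pair of libraries sum to 20 or more, with 1 or more in each. Solid lines mark no difference and dotted lines 2-fold, and Mfap4 in fibroblasts, Eln in endothelial cells and Fbln5 in macrophages, the last from 27 and 11 UMIs, lie beyond the lower dotted line.

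In endothelial cells 4 of the 10 genes had at least 50 UMIs. Their median log2 ratio was -0.82, beside 0.00 over 5986 genes, and 1 of them, Eln, was at least 2-fold lower, in a background of 0.785% of genes lower and 1.10% higher. Fbln5 had a ratio of -0.79 (-1.10 to -0.48) from 298 and 129 UMIs in 38 and 28 cells. Without the top cell of each library, which held 108 and 24 of them, it was -0.43 (-0.79 to -0.08), and with every cell thinned to 2000 UMIs it was 0.35 (-0.56 to 1.27), on the other side of 0. The cells with the next most Fbln5, at 64 and 20 UMIs, were left in. Fbln2 had a ratio of -0.86 (-1.30 to -0.44) from 161 and 66 UMIs, and -0.99 without the top cells, which held 76 and 34. Emilin1 was at 0.22 (-0.48 to 0.93). Summed macrophage markers in these cells were at 76.7 and 226 CPM, with 9 of 9 higher in sGC ∆PC, and contractile markers at 17.5 and 8.12, and their part in the ratios was not tested.

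The fibroblast class was not uniform, and the genes differed between its marker sets in different ways. Fibroblasts with at least 1 of 6 contractile markers (Myh11, Acta2, Tagln, Cnn1, Actg2, Myocd) numbered 18 and 22. Eln was lower in them in both libraries: 122 against 251 CPM in the cells with none in sGC Ctr, a log2 ratio of -1.04 (-1.46 to -0.65), and 29.0 against 247 in sGC ∆PC, a ratio of -3.09 (-4.31 to -2.10) that rests on 8 UMIs, 5 in 1 cell. Lox was higher in them: 1034.6 against 712, a ratio of 0.54 (0.39 to 0.69), and 1643.4 against 741, a ratio of 1.15 (0.99 to 1.30). Mfap5 and Fbln2 were also higher, with ratios of 0.26 and 1.06 for Mfap5 and 0.26 and 0.31 for Fbln2. In the cells with a marker, a single cell held 14.8% and 30.6% of Lox UMIs and 13.1% and 24.5% of Mfap5 UMIs. Their median depth was 27314.5 and 5098.0 UMIs. Myh11, Cnn1, Actg2 and Myocd were at 0 in sGC ∆PC fibroblasts, so the 22 cells there were called on Acta2 or Tagln alone. The marker sets of the libraries need not hold the same kind of cell. Mfap4 was lower, at -0.77 (-1.23 to -0.34) and -0.89 (-1.92 to 0.00), and Fbln1 at -1.09 (-1.55 to -0.66) and -0.43 (-0.96 to 0.05), with the sGC ∆PC interval of both reaching 0. Restricted to cells of at least 5000 UMIs, 17 and 11 cells remained with a marker, and the ratios were -1.02 and -3.40 for Eln and 0.56 and 1.19 for Lox. At a limit of 2 contractile markers 7 and 12 cells remained, and the ratio of Lox in sGC Ctr was 0.08 (-0.17 to 0.33).

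Fibroblasts with at least 3 of 7 adventitial markers (Pi16, Dpp4, Ly6c1, Cd34, Sema3c, Anxa3, Dpt) numbered 56 and 43. They held more Eln, at 281 against 165 CPM in sGC Ctr and 304 against 126 in sGC ∆PC, with log2 ratios of 0.77 (0.52 to 1.03) and 1.28 (0.97 to 1.59). They also held more Mfap4, at 208 against 108 and 103 against 33.2, and more Fbn1, at 1157.1 against 709 and 964 against 634. Ratios of Fbln1 (0.58 and 0.37), Mfap2 (0.55 and 0.47) and Mfap5 (0.25 and 0.14) were smaller, with intervals above 0 in both libraries. In cells of at least 5000 UMIs the sGC ∆PC interval of Fbln1 included 0. Lox and Emilin1 differed little between these sets, with ratios between -0.16 and 0.20. The adventitial markers are not particular to fibroblasts. They summed to 1482.9 and 1549.1 CPM in endothelial cells, against 1445.9 and 862 in fibroblasts. Dpt is also a marker of the fibroblast gate, so the split is in part one by that gate. The set made up 49.1% of sGC Ctr fibroblasts and 27.9% of sGC ∆PC fibroblasts, and 51.4% and 46.4% of those with at least 5000 UMIs. Compared between libraries within each set, Mfap4 was lower in sGC ∆PC in both: by a log2 ratio of -1.01 (-1.34 to -0.69) in cells with the markers and -1.71 (-2.31 to -1.15) in the rest. Eln was at 0.12 (-0.10 to 0.33) in cells with the markers and -0.39 (-0.72 to -0.06) in the rest, whose value was -0.23 (-0.58 to 0.11) in cells of at least 5000 UMIs. Median depth in sGC ∆PC was 23156.0 UMIs in cells with the markers and 3608.0 in the rest. Fbln2 took opposite signs, at 0.22 (0.13 to 0.30) and -0.44 (-0.53 to -0.34).

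**Figure D4:**
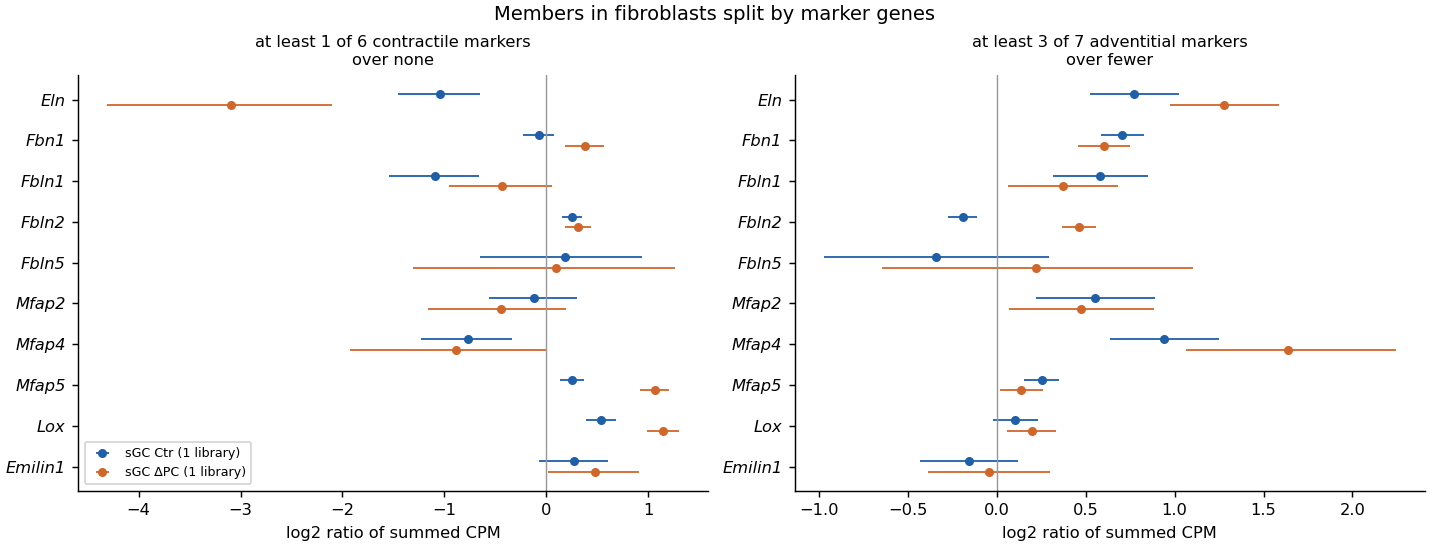
Log2 ratio of each gene (y) between fibroblasts with and without a marker set (x), with exact 95% intervals, sGC Ctr in blue and sGC ∆PC in orange, 1 library each. On the left Eln lies below 0 and Lox above 0 in both libraries. On the right the intervals of Eln, Fbn1, Fbln1, Mfap2, Mfap4 and Mfap5 lie above 0 in both.

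UMIs of all 10 genes were counted in cancer cells. In sGC Ctr, Eln, Fbln2, Mfap2, Mfap5 and Lox stood at 0.162, 0.145, 0.11, 0.087 and 0.106 percent of their fibroblast level. Col1a1, a fibroblast collagen, stood above all of them at 0.186. In sGC ∆PC these genes stood at 0.239, 0.170, 0.313, 0.182 and 0.159 against 0.301 for Col1a1, so that Mfap2 was above it. Col1a2, also a fibroblast collagen, stood at 0.123 and 0.204. Eln was above Col1a2 in both libraries, Fbln2 in sGC Ctr and Mfap2 in sGC ∆PC. Expression and fibroblast RNA were not told apart at these levels, so these genes are not read as expression. The levels of Fbn1, Mfap4 and Emilin1 were higher the more of 5 mesenchymal markers (Prg4, Aspn, Ptn, Lum, Dcn) a cell showed, from 0 to 4. Cells with all 5 numbered 4 and 2. Lum and Dcn are also fibroblast markers, and cells that met the fibroblast gate were left out. Fbn1 stood at 20.4, 44.7, 76.2, 105 and 187 CPM in sGC Ctr cells with 0, 1, 2, 3 and 4 markers, and at 23.8, 43.1, 68.1, 83.1 and 120 in sGC ∆PC cells. Mfap4 stood at 0.34, 1.16, 3.95, 6.45 and 53.7 in sGC Ctr and 0.39, 0.98, 2.67, 5.21 and 20.6 in sGC ∆PC. The highest bin held 59 and 92 cells. Pooled over cells with at least 3 markers against none, the log2 ratios were 2.41 (2.34 to 2.48) and 1.83 (1.75 to 1.91) for Fbn1, 4.68 (4.22 to 5.18) and 3.91 (3.34 to 4.53) for Mfap4, 1.61 and 1.36 for Fbln5, and 0.77 and 0.49 for Emilin1. Lox was at 0.60 (-0.10 to 1.28) and 0.24 (-0.34 to 0.82), intervals that include no difference, but was not flat between these bins. With 2 markers it stood at 1.60 (1.36 to 1.86) and 1.93 (1.68 to 2.20) CPM. With none it stood at 0.39 (0.28 to 0.51) and 0.82 (0.62 to 1.07). A single sGC Ctr cell held 75 of the 168 Lox UMIs of the bin with 2 markers. The most Lox UMIs in a sGC ∆PC cancer cell was 17. Among the other genes not read as expression, Eln was at 1.52 and -0.10 and Fbln2 at 0.48 and 0.23. Mfap2 was at 1.68 and 0.99 and Mfap5 at 0.63 and 1.47. The interval lay above 0 in both libraries for Mfap5, in sGC Ctr alone for Eln and Fbln2, and in neither for Mfap2. Median depth in these bins ran from 35613.0 to 53762.0 UMIs in sGC Ctr and from 11322.0 to 16995.0 in sGC ∆PC.

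**Figure D5:**
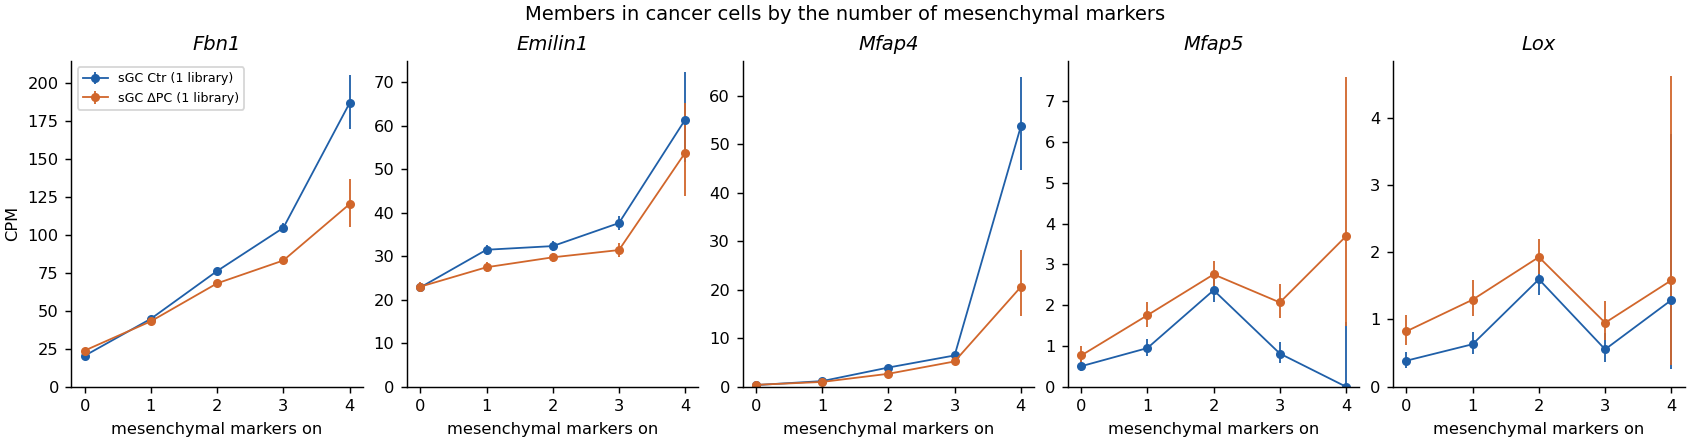
CPM (y) of 5 genes in cancer cells by the number of mesenchymal markers on (x), with exact 95% Poisson intervals, for bins of at least 20 cells, 1 library a color. Fbn1 goes from 20.4 to 187 in sGC Ctr and from 23.8 to 120 in sGC ∆PC. Lox is at 0.39 and 0.82 with no marker, 1.60 and 1.93 with 2, and 0.56 and 0.95 with 3. In sGC Ctr a single cell holds 75 of the 168 Lox UMIs with 2 markers.

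Between the libraries, cancer cells had a median log2 ratio of 0.13 over the 10 genes and 0.01 over 15107 genes, and 1 of the 10, Mfap2, among those not read as expression, was at least 2-fold higher in sGC ∆PC (1.24, interval 0.74 to 1.75, from 52 and 101 UMIs, or 0.14 and 0.33 CPM). The background was 3.39% of genes higher and 0.126% lower. Fbn1, the most abundant, was at 0.00 (-0.03 to 0.03), with a range of -0.27 to 0.04 over 9 alternatives, the former when thinned to 2000 UMIs, and Fbln5 was at -0.57 (-0.73 to -0.41).

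In macrophages 5 of the 10 genes had at least 50 UMIs, and 3 of them were at least 2-fold higher in sGC ∆PC, in a background of 0.836% higher and 0.346% lower. Mfap5 was at 0.82 and 3.41 CPM, Lox at 0.56 and 2.16, and Fbln2 at 1.87 and 3.82. As a percent of the fibroblast level in the same library, these were 0.061 and 0.316 for Mfap5, 0.073 and 0.251 for Lox, and 0.098 and 0.213 for Fbln2. Col1a1, a fibroblast collagen that macrophages are not known for, stood at 0.118 and 0.297 percent, and 8 of 8 fibroblast markers were higher in sGC ∆PC macrophages (417 and 576 CPM in sum). In cells of at least 5000 UMIs 1 of the 10 genes was at least 2-fold higher in place of 3. Emilin1 stood apart at 25.2 and 27.2 percent of its fibroblast level, with a ratio between libraries of -0.14 (-0.27 to -0.02).

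Another 32 genes of elastic fiber assembly and turnover were measured as counts. Their highest level was in fibroblasts for 15 in both libraries, in endothelial cells for 3, and in different classes in the 2 libraries for 5, with no share over all genes beside these counts. In fibroblasts 22 reached 50 UMIs, of which 2 were at least 2-fold lower in sGC ∆PC, 1 was higher and 19 were within 2-fold, in the background of 1.18% lower and 1.17% higher. The genes past 2-fold in fibroblasts are named here after their values were seen. The lower ones were Fbn2, the second fibrillin, at 49.6 and 22.5 CPM (-1.14, interval -1.66 to -0.64), and Ltbp4 at 41.9 and 16.2 (-1.38, interval -1.98 to -0.80). The higher one was Ctss, a cathepsin abundant in macrophages, at 17.7 and 62.2 in fibroblasts and 1535.8 and 1638.6 in macrophages. In endothelial cells 8 of the 32 reached 50 UMIs, in a background of 0.785% lower and 1.10% higher. Of these, 1 was at least 2-fold lower, Ltbp4, and 1 was higher, a protease that degrades elastin. Ltbp4 was at 162 and 69.4 there, a ratio of -1.22 (-1.61 to -0.85). It was at 87.9 and 55.2 without the top cell of each library, which in sGC Ctr was the cell with 210 Eln UMIs. Efemp2, or fibulin-4, was at 567 and 475 in fibroblasts, and all 6 measured lysyl oxidase genes and processing factors in fibroblasts, Loxl1 (561 and 430) and Loxl2 (368 and 404) among them, were within 2-fold. Loxl2 was also at 470 and 356 in pericytes. Of the 6 proteases measured in macrophages, 3 were at least 2-fold higher in sGC ∆PC, namely Ctsk (17.5 and 47.4), Mmp9 (12.1 and 25.02) and Mmp2 (1.61 and 3.28), in the background of 0.836% higher and 0.346% lower. Ctsk and Mmp2 were highest in fibroblasts (336 and 234, and 1204.4 and 989.1) and Mmp9 in granulocytes (285 and 167). In macrophages 8 of 8 fibroblast markers and 6 of 6 granulocyte markers were higher in sGC ∆PC. The part of such RNA in these 3 ratios was not tested. In cancer cells 3 of 6 proteases, Mmp9, Ctsk and Ctss, were also at least 2-fold higher, in a background of 3.39% higher and 0.126% lower. Summed macrophage markers in cancer cells were at 121 and 224 CPM, with 9 of 9 higher in sGC ∆PC. Granulocyte markers there were at 21.0 and 59.8, with 6 of 6 higher, and the part of such RNA in the protease ratios was not tested.

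The genes with the pattern most like each of 9 members were found by Pearson's r of log2(CPM + 1) over 14 points, the 7 classes in each library, among 14752 genes. These are descriptions over points that share libraries, depths and free RNA. For Eln the sGC Ctr endothelial point rests on 1 cell with 210 of 215 UMIs. That cell also held 76 of the 161 Fbln2 UMIs there. Eln was nearest to Sorcs2 (0.928), Fbn1 to Igsf10 (0.982), Fbln1 to Ptgfr (0.971), Fbln2 to Spats2l (0.970) and Fbln5 to Prrg3 (0.977). Mfap2 was nearest to Ms4a4d (0.987), Mfap4 to Ephx4 (0.986), Mfap5 to Serpina3n (0.984) and Lox to Spon2 (0.963). Among the nearest 3 of each, Igsf10 came up for both Fbn1 and Fbln1, and Sorcs2 and Spats2l for both Eln and Fbln2.

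Cells outside the 7 classes also held part of these transcripts. Cells with markers of at least 2 classes, 304 and 1633 of those kept, held 14.4% and 14.1% of Eln UMIs, 14.9% and 20.3% of Fbln2, 16.5% and 24.3% of Mfap5 and 11.4% and 22.4% of Lox. Cells with no class held a further 29.9% and 27.8% of Mfap4 and 23.6% and 17.6% of Fbln5. Fibroblasts, less than 1% of the cells kept (0.933% and 0.684%), held 69.0% and 47.6% of Mfap5 and 67.9% and 48.1% of Lox.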

How the data were processed

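Per the labels and the study's methods, the authors sequenced 3′ single-cell libraries (10x Genomics) and made the deposited counts, raw UMI counts per gene and cell, with Cell Ranger 6.1.1 on mm10. From the 2 count matrices, cells under 10% mitochondrial UMIs and within 3 median absolute deviations of log UMIs and log genes were kept, after the study's methods. The study also left out clusters with mixed markers, which was not done here. Its final sets of cells were smaller than those kept here, above all in sGC ∆PC. Deposited totals were 487859656 and 436352742 UMIs. A marker counted as on at 1 or more UMIs per 10000 in a cell. A class needed 5 of 10 pericyte, 5 of 10 endothelial, 6 of 8 fibroblast, 5 of 9 macrophage, 4 of 6 granulocyte, 4 of 6 T cell or 3 of 4 cancer markers, no other class met and at most 1 cancer marker. No doublet caller was run, so doublets of 1 class stay in. UMIs were summed by class. Levels carry exact Poisson, shares exact binomial and ratios exact conditional binomial 95% intervals. With 1 library per genotype there was no test. Background shares used genes with at least 50 UMIs and 0.5 added to each sum. Genes at 0 have a floor of 3 UMIs. The code was tested on simulated data (Python 3.11.15, numpy 2.4.6, scipy 1.17.1). Positions come from GENCODE for mm10. Members, lists and rules were chosen with earlier results of these data known, and gate limits after seeing the cells. By rule the text names all 10 members, at most 4 genes of each other list, those with the most UMIs, and the 3 genes with the highest r to a member; other genes past 2-fold were named after their values were seen. The genes nearest Emilin1 are not reported here.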

Additional observations from a re-analysis of the deposited data

How the results depend on the processing

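Alternatives were a gate 1 marker stricter, no limit on markers of other classes, assignment by likelihood, no filter by median deviation, a mitochondrial limit of 5%, thinning to 2000 UMIs, totals without mitochondrial, ribosomal protein and haemoglobin genes, a minimum of 20 UMIs and, chosen after seeing the data, cells of at least 5000 UMIs and leaving out the top cell of each library. Leaving out a library was not possible. No paired analysis was possible because each genotype has 1 library. The count of 9 genes highest in fibroblasts did not change. The log2 ratio of Mfap4 in fibroblasts was -1.72 without the limit on other markers. Fbn1 in pericytes was at -0.57 by likelihood and 0.31 when thinned. Eln in endothelial cells was at -3.43 when thinned and -0.90 without the top cells. The count of genes at least 2-fold lower in fibroblasts, 1, became 0 with the stricter gate or thinning and 4 without the limit. In endothelial cells it went from 1 to 3 without the limit and to 0 when thinned. In cancer cells the count higher went from 1 to 2 by likelihood or the 5% limit. In macrophages the count higher went from 3 to 1 without the limit, to 0 when thinned and to 1 in cells of at least 5000 UMIs, and the count lower from 0 to 1 at 20 UMIs. Thinning leaves fewer genes at 50 UMIs. Among ratios whose interval lay off 0, signs turned for Lox in fibroblasts (-0.52 without the limit, -0.18 by likelihood), Fbln5 in endothelial cells (0.35 thinned), Mfap4 in cancer cells (0.053 with the stricter gate) and Emilin1 in macrophages (0.0042 thinned), and the cause was not tested. Among those whose interval included 0, signs also turned for Eln in fibroblasts, Fbn1, Mfap2 and Emilin1 in pericytes, Fbn1 in cancer cells and Mfap4 in macrophages. The sign held in every alternative for 8 of 10 genes in fibroblasts, 1 of 4 in pericytes, 4 of 5 in endothelial cells, 8 of 10 in cancer cells and 7 of 9 in macrophages. Without the cell with the most Eln, also chosen after seeing the data, the summed level in endothelial cells was 230.1 and 176 CPM. Depth is a limit in pericytes, where 1 of the 10 genes reached 50 UMIs.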

Other observations

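Skeletal muscle, keratinocyte, adipocyte and Schwann cell markers were near 0 in the fibroblasts. Keratinocyte and adipocyte markers were at 0 in both libraries, Schwann cell markers at 0.77 and 0 CPM and skeletal muscle markers at 0.38 and 0.98. Contractile markers in fibroblasts were at 465 and 118 CPM, and Myh11, Cnn1, Actg2 and Myocd were at 0 in sGC ∆PC fibroblasts.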
